A study of Homo sapiens with 6 samples.

Results

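The mitochondrial ribosomal protein genes were followed in K562 cells, an established human line from chronic myeloid leukaemia, by RNA sequencing. The members were the rows of the count tables whose NCBI Gene identifier has a current protein-coding symbol of MRPL or MRPS followed by a digit, with pseudogenes left out. They numbered 77 of 25702 identifiers, of which 49 carry a large-subunit symbol (MRPL) and 28 a small-subunit symbol (MRPS). The cells had been nucleofected with the pCMV-HA expression plasmid, either without an insert (EV) or with MXD3 or the gene fusion STIM1::MXD3 in it, so all groups shared the vector and the procedure. Each of the 3 groups had 2 libraries, given by the study as independent transfections of a single line. Expression was transient and no sort for transfected cells is described, so untransfected cells may be in every library. The paper reports that its nucleofection reached most K562 cells, as read from a fluorescent protein carried by a different vector.

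Mitochondria make a small set of respiratory chain subunits from their own genome on a ribosome of their own. Both of its rRNAs (RNR1 in the small subunit, RNR2 in the large) come from mitochondrial DNA, whereas all of its proteins are encoded in the nucleus, made in the cytosol and imported. Some of these proteins have a counterpart in bacterial ribosomes and others are found only in mitochondria. MXD3 belongs to the MXD family, which pairs with MAX and competes with MYC for E-box sites, and nuclear genes for ribosomes are among the known targets of MYC.

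Because MXD proteins act through E-boxes, promoter sequences of the members were read from RefSeq (GRCh38.p14), from 250 bases before to 50 bases after the annotated start. A sequence was found for 69 of the 77 members, 42 of the large and 27 of the small subunit. The E-box CACGTG, which reads the same on both strands, stood in 6 of the 69 (8.70%), against 9.96% of 11468 promoters of genes tested here and 7.43% of all 27305 promoters. The 6 were MRPL22, MRPL36, MRPL37, MRPL45, MRPL49 and MRPS18C, chosen by the motif and not by their values. MRPL36, MRPL49 and MRPS18C start close to a protein-coding gene on the other strand (NDUFS6, FAU and HELQ), so these windows may be shared. In the lines that follow, the 250 bases before the start are given 5′ to 3′ on the gene's strand, with the E-box in capitals. They are those of MRPL45, MRPL37 and MRPS18C, the only small-subunit gene of the 6. In the fit without replicate numbers, MRPL45 and MRPL37 had the smallest p-values of the large subunit with MXD3 against EV. MRPL45 lay at chr17:38296918-38297167 (plus strand), MRPL37 at chr1:54199917-54200166 (plus strand) and MRPS18C at chr4:83455808-83456057 (plus strand).
MRPL45: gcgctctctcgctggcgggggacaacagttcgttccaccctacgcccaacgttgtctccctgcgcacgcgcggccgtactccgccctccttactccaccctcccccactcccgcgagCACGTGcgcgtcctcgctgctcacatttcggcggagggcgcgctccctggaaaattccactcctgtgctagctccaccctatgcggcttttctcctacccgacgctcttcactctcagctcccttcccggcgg
MRPL37: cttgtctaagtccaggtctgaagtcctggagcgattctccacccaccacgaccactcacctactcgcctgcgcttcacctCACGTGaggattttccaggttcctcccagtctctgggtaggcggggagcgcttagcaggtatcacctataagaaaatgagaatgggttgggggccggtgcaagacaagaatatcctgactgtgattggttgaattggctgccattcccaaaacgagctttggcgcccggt
MRPS18C: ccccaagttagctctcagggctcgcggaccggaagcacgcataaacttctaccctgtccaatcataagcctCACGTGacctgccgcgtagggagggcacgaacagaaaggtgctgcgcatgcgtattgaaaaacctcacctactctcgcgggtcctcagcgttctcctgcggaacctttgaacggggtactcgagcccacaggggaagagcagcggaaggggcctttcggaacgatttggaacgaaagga

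Other promoter motifs were more frequent among the members. The ETS motif CCGGAAG, read on both strands, was in 29 of 69 member promoters (42.0%), against 18.6% of those of genes tested. The YY1 motif AAGATGG, also on both strands, was in 23 (33.3%) against 7.46%. The core of the NRF1 site, TGCGCA, was in 14 (20.3%) against 13.3%. By contrast, CCAAT was in 20 (29.0%) against 36.8%, and the GC box GGGCGG in 42 (60.9%) against 67.8%. Both the ETS and the YY1 motif were found in 9 promoters. MRPL51 was among these, and its 250 bases at chr12:6493263-6493512 (minus strand, GRCh38.p14) are given with ETS matches of either strand in capitals, since this gene differed most between replicates in the large subunit.
MRPL51: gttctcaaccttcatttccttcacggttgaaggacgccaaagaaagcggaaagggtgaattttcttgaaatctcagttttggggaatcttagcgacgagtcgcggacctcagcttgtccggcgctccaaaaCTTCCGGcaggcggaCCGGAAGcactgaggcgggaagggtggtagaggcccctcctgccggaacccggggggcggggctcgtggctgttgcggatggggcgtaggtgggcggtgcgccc
A match is a description of the letters and not of a bound site.

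The libraries held 53048343 to 63835779 counts, of which the members took 0.451% to 0.479%. The plasmid genes followed their labels. MXD3 stood at 9.33 and 11.7 CPM (counts scaled to the library's total after TMM correction) with EV, 2520 and 2160 with MXD3, and 1980 and 1850 with STIM1::MXD3. STIM1 stood at 205 and 176, 187 and 159, and 471 and 453 CPM in the same order. All 12 markers of K562 cells were high, led by HBE1 (3550 to 4700 CPM). Of 11 markers of other blood cells, CD3D (13.4 to 19.8 CPM) and LYZ (21.2 to 27.0) were above 2 CPM and MS4A1 was at 0 in all libraries. The part of these transcripts in any result was not tested.

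**Figure D1:**
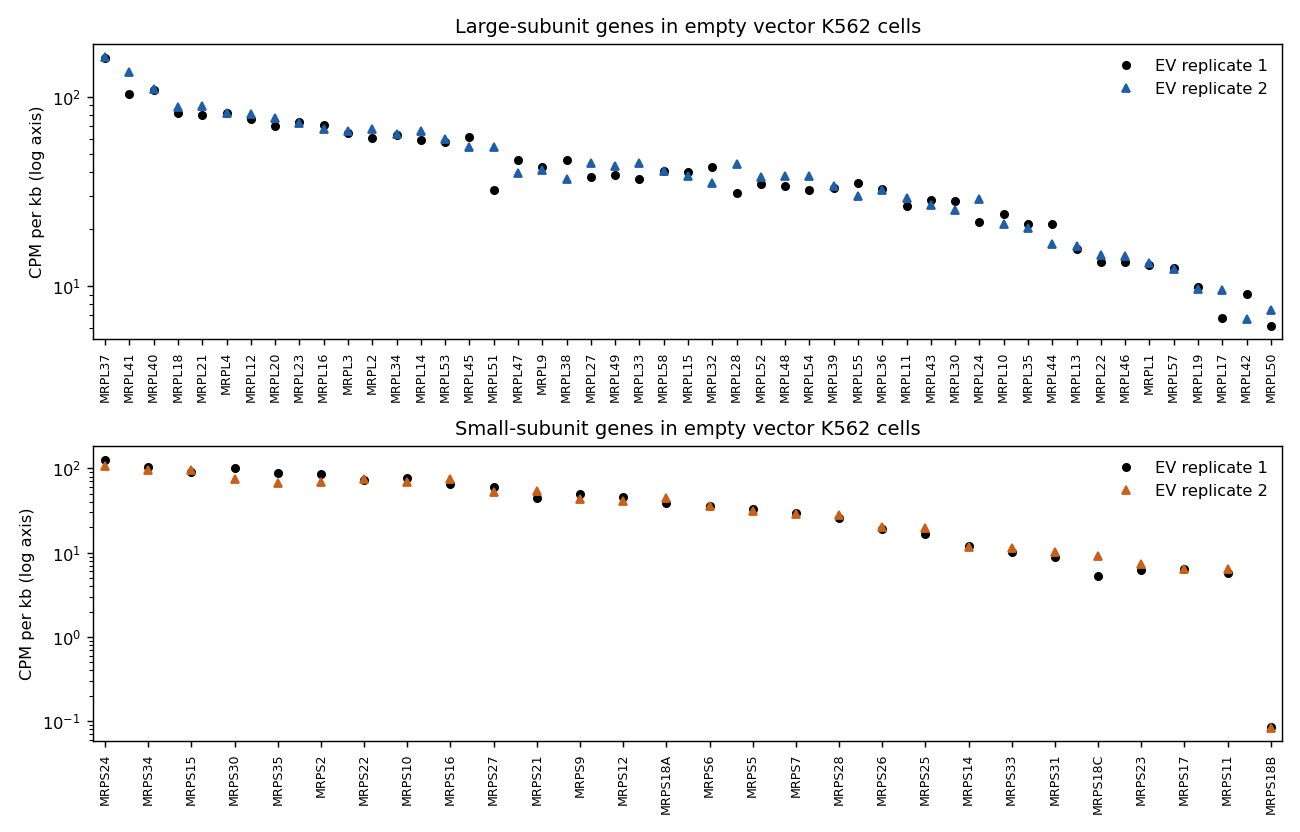
CPM per kilobase of transcript on a log axis for each member in the 2 EV libraries, large subunit above and small subunit below, ordered by their mean. All 76 tested members lie between 6.04 and 161, and MRPS18B stands apart at 0.0835.

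The members were expressed well above the typical gene. In EV cells their median was 39.1 CPM per kilobase (quartiles 19.7 and 65.1, n = 77 genes), against 6.76 for the 14176 tested genes with an annotated length. The medians of the subunits were close, at 39.1 for the large and 38.8 for the small. Members with a bacterial counterpart (46 genes) had a median of 39.9 and those found only in mitochondria (31 genes) one of 36.2. This order rests on the length of 1 annotated transcript per gene, which ran from 496 to 15557 bases.

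In the large subunit MRPL37, which has no bacterial counterpart, was the highest at 161 CPM per kilobase, followed by MRPL41 at 119 and MRPL40 at 109. The lowest were MRPL17 at 8.14, MRPL42 at 7.89 and MRPL50 at 6.85. The place of MRPL42 followed from its annotated transcript of 15557 bases, since its level without length was 141 and 104 CPM. In the small subunit MRPS24 (116), MRPS34 (100) and MRPS15 (93.0 CPM per kilobase) were the highest. The lowest among the tested genes were MRPS23 (6.72), MRPS17 (6.38) and MRPS11 (6.04). Neighbours in this order were often closer than their spread: 31 of 48 neighbouring pairs in the large and 11 of 27 in the small subunit stood the other way round in 1 of the EV libraries.

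MRPS18B was near 0 in every library. It is 1 of 3 MRPS18 genes, of which MRPS18C is the one counted here as having a bacterial counterpart, and lies at chr6:30585617-30594172 (GRCh37, plus strand). Its counts were 6 and 7 with EV, 2 and 4 with MXD3, and 0 and 2 with STIM1::MXD3. It was the only member that did not pass the filter on low counts, which left 76 tested. Low values were common around it: 95 of 146 protein-coding genes of the major histocompatibility region that holds it (65.1%) were under 10 counts in every library, against 234 of 826 (28.3%) on the rest of the chromosome. Its neighbour ATAT1 was at 0 in all libraries, ABCF1 lay between 0.182 and 1.22 CPM and PPP1R10 between 0.0330 and 0.477. MDC1 was at 1.73 to 4.30 CPM in every library. GNL1 reached 4.39 CPM in MXD3 replicate 1 and DHX16 reached 4.45 in STIM1::MXD3 replicate 1, with 1.35 and 0.302 CPM as their highest values in the other libraries. The cause was not tested. The other members of this family had higher values. MRPS18A, placed in the large subunit in structures despite its symbol, stood at 44.8 and 52.5 CPM with EV, and MRPS18C at 8.27 and 14.1.

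**Figure D2:**
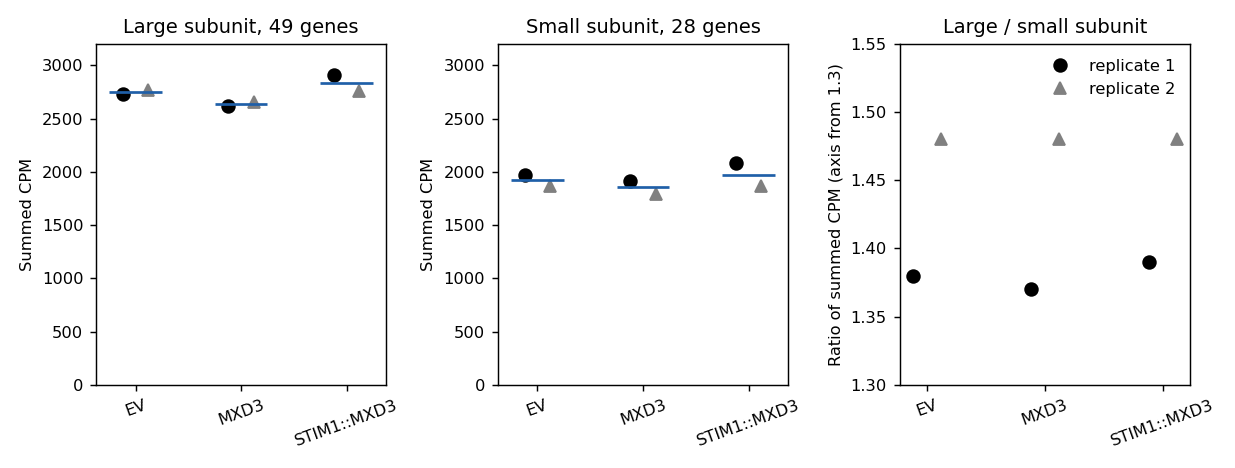
Summed CPM of the genes with a large-subunit and with a small-subunit symbol by plasmid group, and the ratio of the sums (this axis starts at 1.3). Circles are replicate 1, triangles replicate 2 and lines the mean of 2 libraries. The sums differ little between groups, while the ratio is 1.37 to 1.39 in every replicate 1 library and 1.48 in every replicate 2 library.

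The total of the members moved little. Their summed level was 4699 and 4639 CPM with EV, 4530 and 4445 with MXD3, and 4989 and 4617 with STIM1::MXD3. The MXD3 libraries were thus the lowest pair, and the STIM1::MXD3 libraries overlapped the EV pair. The highest library exceeded the lowest 1.12 times. The group means were 4669 ± 42.5, 4488 ± 59.9 and 4803 ± 263 CPM (SD, n = 2 each). As RNA was taken from bulk cells, fewer cells with a transcript and less of it per cell cannot be told apart.

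The products of the mitochondrial genome varied far more. The 13 mitochondrially encoded protein genes summed to 24436 and 12711 CPM with EV, 12217 and 31462 with MXD3, and 13881 and 24397 with STIM1::MXD3, a range of 2.58 times. RNR2, the large-subunit rRNA, stood at 3710 and 2300, 2000 and 4600, and 2170 and 3610 CPM in that order. RNR1 was 262 and 149, 172 and 189, and 153 and 150 CPM. MXD3 replicate 2, the lowest library for the nuclear members, was the highest for the mitochondrially encoded proteins and RNR2. Polyadenylated RNA was sequenced, so the levels of these rRNAs need not follow their abundance.

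The first question was whether the fusion changed the members relative to the empty vector. No member passed the test: 0 of 76 had an adjusted p under 0.05 in edgeR's quasi-likelihood test, where 0.00648% of the 15431 genes tested did. No member had an unadjusted p under 0.05 either (0.953% of all genes), and DESeq2 called none. With the replicate block the count of called members was also 0 (0.0194% of all genes), and 2 were higher and 0 lower at an unadjusted p under 0.05 (3.77% and 4.73% of all genes). The median log2 fold change was 0.04 over the large and 0.06 over the small subunit, against 0.01 over all genes. With offsets for GC content and length these medians were 0.01 and 0.03. Values above 0 were seen for 58 of 76 members (76.3%), against 52.1% of all genes. Between the replicate 1 libraries the median log2 ratio of the members was 0.09, and between the replicate 2 libraries it was 0.01. Without STIM1::MXD3 replicate 1 the large-subunit median was -0.02.

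In the fit without the replicate block, the smallest p-value belonged to MRPS23, a small-subunit protein found only in mitochondria. It stood at 34.6 and 40.8 CPM with EV and at 42.9 and 50.8 with STIM1::MXD3. The groups did not overlap, and the log2 fold change was 0.31 ± 0.17 (SE; edgeR adjusted p = 1.00). MRPL24, related to bacterial L24, had the highest log2 fold change at 0.40 ± 0.29. Its values of 19.2 and 25.5 CPM with EV and 22.2 and 36.7 with STIM1::MXD3 overlapped. Within replicate pairs it was higher both times (log2 ratios 0.21 and 0.52). With the replicate block it had the smallest p-value of the members (0.37 ± 0.12, unadjusted p = 0.00549 and adjusted p = 0.455 in edgeR). Without STIM1::MXD3 replicate 2 its value was -0.02. MRPL1, of the stalk through which the tRNA leaves, was 15.1 and 15.6 against 17.2 and 18.6 CPM (0.23 ± 0.16). MRPL20, MRPS31 and MRPS7 had log2 fold changes of 0.16 to 0.21 with no overlap between groups. In all, 15 members (19.7%) lay above EV without overlap and 2 (2.63%) below, against 12% and 10% of all genes.

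**Figure D3:**
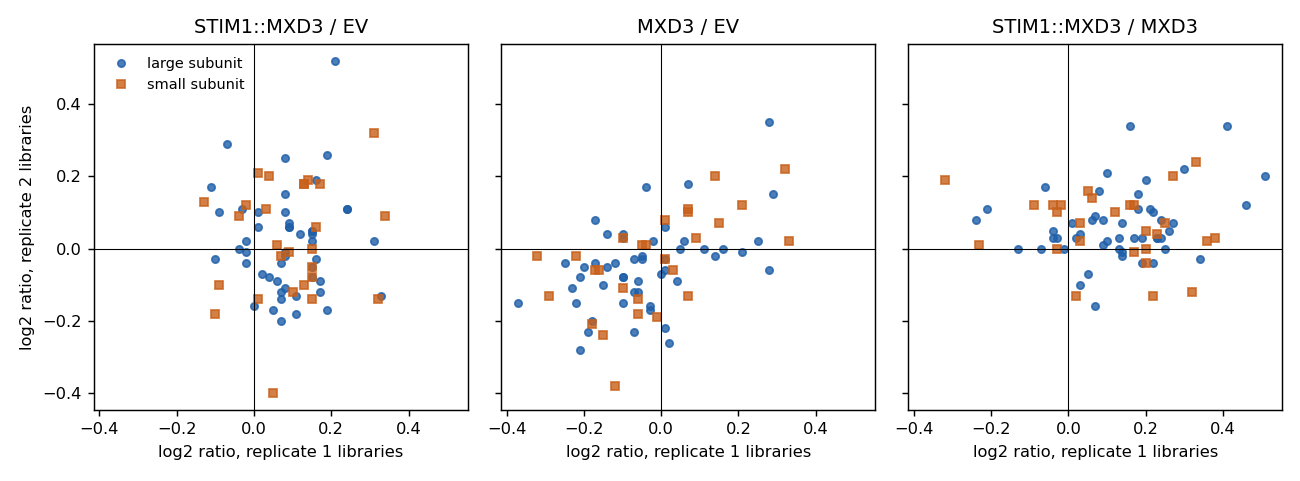
Log2 ratio of each tested member in the replicate 2 libraries against that in the replicate 1 libraries, for the 3 comparisons (circles, large subunit; squares, small subunit). In the right panel 45 of 76 members lie above 0 in both pairs and 2 lie below 0 in both; in the middle panel 17 lie above and 37 below.

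Wild-type MXD3 was then compared with EV. Again 0 of 76 members were called, against 0.00648% of all genes, and none had an unadjusted p under 0.05 (1.86% of all genes). DESeq2 called none of them. A fit blocked on replicate called 45 genes (0.292%), 0 of them members, and at an unadjusted p under 0.05 it held 1 member as higher and 6 as lower (6.94% and 6.99% of all genes). The median log2 fold change was -0.05 over the large and -0.02 over the small subunit, against 0.00 over all genes. Values were above 0 for 23 of 76 members (30.3%), against 50.2% of all genes. They were below 0 in both replicate pairs for 37 of 76 members (48.7%), against 31.5% of all genes, and above 0 in both for 17 (22.4%), against 30.6%. Without overlap 19 members (25%) lay below EV and 5 (6.58%) above, against 14.8% and 16.2% of all genes. The small-subunit median was 0.02 when libraries were scaled by their totals only, and 0.02 without MXD3 replicate 1.

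MRPL24, higher with MXD3, had the smallest p-value here with the replicate block (0.32 ± 0.12, unadjusted p = 0.0153 and adjusted p = 0.237 in edgeR). Without the block the smallest belonged to MRPL45. Its product lies near the exit of the nascent chain and holds the ribosome at the inner membrane. The gene (NCBI Gene 84311, chr17:36452989-36479100, GRCh37, plus strand) stood at 95.0 and 83.9 CPM with EV and 73.6 and 75.8 with MXD3. Both MXD3 libraries lay below both EV libraries, with a log2 fold change of -0.26 ± 0.14 (SE; edgeR adjusted p = 0.999, and 0.240 with the replicate block). MRPL37 was 237 and 239 against 209 and 208 CPM (-0.19 ± 0.12). MRPL53 was 28.6 and 29.5 against 25.1 and 25.2 CPM (-0.21 ± 0.14), though its exons overlap those of CCDC142 on the same strand, and the counts of the genes may be mixed.

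In the small subunit MRPS5, which has a bacterial counterpart, was 108 and 104 CPM with EV and 88.2 and 94.8 with MXD3 (-0.21 ± 0.12). MRPS15, of the same kind, was 86.3 and 91.0 against 76.1 and 78.9 CPM (-0.19 ± 0.11). MRPS31 went the other way, at 13.2 and 15.2 against 16.4 and 17.7 CPM (0.27 ± 0.16). None of these groups overlapped, and all adjusted p-values were 0.999. Values near 0 were seen elsewhere: MRPL12, of the factor-binding stalk, was 76.9 and 81.4 with EV and 79.9 and 82.7 CPM with MXD3 (0.04 ± 0.11), and MRPS34, found only in mitochondria, was 104 and 96.2 against 106 and 92.2 CPM (-0.01 ± 0.13). MRPL10, which anchors the stalk, was lower with MXD3 without overlap, at 41.8 and 37 against 36.4 and 35.6 CPM (-0.13 ± 0.13).

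The promoter E-box was set beside these values. The 6 members with an E-box had a median log2 fold change with MXD3 of -0.13, and the tested members with a promoter but no E-box one of -0.05. The medians were -0.10 with and -0.04 without the NRF1 core, and -0.10 with and -0.04 without CCAAT. They were -0.08 with and -0.04 without YY1, and -0.05 with and -0.06 without the GC box. ETS went the other way, at -0.04 with and -0.10 without. The motifs are not separate groups of genes, since MRPL22, MRPL36, MRPL45 and MRPS18C held both the E-box and the NRF1 core. With the fusion against MXD3 the medians were 0.07 with and 0.09 without an E-box. The 6 did not share a direction: MRPL45, MRPL37, MRPS18C and MRPL22 were at -0.26, -0.19, -0.13 and -0.12, while MRPL36 and MRPL49 were at 0.07 and 0.08. No member of either kind passed the test.

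The fusion was also set directly against wild-type MXD3. This was the comparison in which the members leaned most to a single side, although 0 of 76 were called by edgeR or DESeq2 (edgeR called 0% of all genes, DESeq2 1 gene). In the blocked fit 7 members were higher and 0 lower at an unadjusted p under 0.05, against 3.21% and 3.27% of all genes. Values were above 0 in both pairs for 45 members (59.2%), against 27.5% of all genes, and below 0 in both for 2 (2.63%), against 26.1%. Without overlap 24 members (31.6%) were higher with the fusion and 0 lower, against 10.9% and 10.2% of all genes. The median log2 fold change was 0.09 over the large and 0.10 over the small subunit, against 0.01 over all genes. Between the replicate 1 libraries the members' median was 0.14, and between the replicate 2 libraries 0.05. This comparison shares its MXD3 libraries with that of MXD3 against EV and its fusion libraries with the first.

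Tested genes with short transcripts, the members included, leaned the same way. The median member transcript was 1224 bases, against 3126 for all tested genes. Among all 1124 tested genes in the length range of the shortest members (up to 999 bases), the median was 0.07 and 18.3% were higher without overlap. Each range of all genes holds the members in it. The shortest also holds cytosolic ribosomal protein genes, whose median length was 858 bases. Over 84 tested genes of that kind the median was 0.23, and 44 were higher without overlap. Their part in the values of all short genes was not tested. The 26 members in that range had a median of 0.10 and a share of 38.5%. From 999 to 1605 bases the median was 0.06 for all 1560 genes and 0.06 for the 24 members, with shares of 16.7% and 33.3%. Above 1605 bases it was -0.001 for 11492 genes and 0.10 for 26 members, with shares of 9.48% and 23.1%. With offsets for GC content and length in the fit, the medians of the members were 0.02 over the large and 0.04 over the small subunit. As the offsets were fitted to these same libraries, they also take out any plasmid difference shared by genes of like length. With MXD3 against EV, all genes of up to 999 bases had a median of -0.07, as did the 26 members, of which 34.6% were lower without overlap against 22.1% of all genes in that range. From 999 to 1605 bases both medians were -0.03. Above 1605 bases the members were at -0.09 and all genes at 0.01.

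MRPL45 had the smallest p-value of the members in this comparison too. It was 73.6 and 75.8 CPM with MXD3 and 105 and 86.9 with STIM1::MXD3, a log2 fold change of 0.36 ± 0.14 (unadjusted p = 0.0379 and adjusted p = 1.00 in edgeR). MRPL1 was 13 and 14.7 against 17.2 and 18.6 CPM (0.37 ± 0.16). These were the only members with an unadjusted p under 0.05 in the edgeR fit without the replicate block (1.01% of all genes). With the block 7 members were higher and 0 lower at that level (3.21% and 3.27% of all genes). MRPL11, at the base of the factor-binding stalk, was 38.5 and 43.4 against 52.9 and 47.3 CPM (0.29 ± 0.14).

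In the small subunit MRPS15 was 76.1 and 78.9 CPM with MXD3 and 92.0 and 90.4 with the fusion (0.24 ± 0.11). MRPS33 was 38.6 and 46.4 against 48.4 and 54.8 CPM (0.28 ± 0.15), and MRPS28 was 20.8 and 20.9 against 27.1 and 21.4 CPM (0.22 ± 0.16). In all 6 the fusion libraries lay above the MXD3 libraries, but without STIM1::MXD3 replicate 1 the value of MRPS28 was 0.04, and without MXD3 replicate 1 that of MRPS33 was 0.14. MRPL3, close to the catalytic centre, was 103 and 106 against 123 and 110 CPM (0.16 ± 0.12). MRPS12, of the decoding centre, was 47.0 and 40.2 against 48.8 and 44.9 CPM (0.10 ± 0.14), with overlap. MRPL58, a peptidyl-tRNA hydrolase built into the large subunit, was 34.8 and 35.2 against 40.5 and 34.2 CPM (0.09 ± 0.14).

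**Figure D4:**
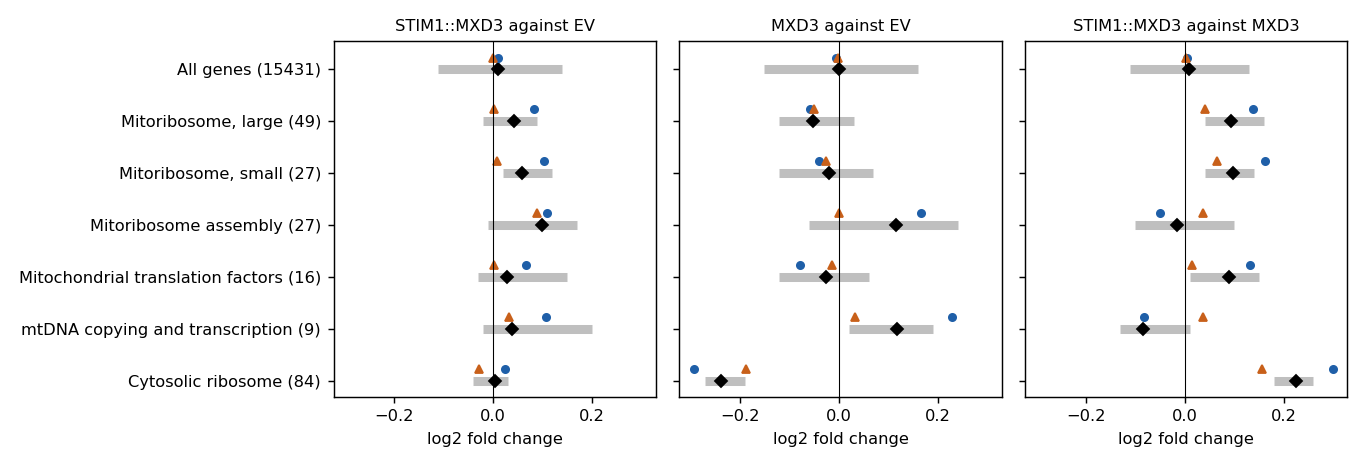
Log2 fold changes of gene lists in the 3 comparisons, with the number of tested genes in brackets. Diamonds are medians of the fit, grey bars the quartiles, circles and triangles the medians in the replicate 1 and replicate 2 pairs. The fitted medians of the 5 nuclear lists of mitochondrial genes shown lie within 0.12 of 0, and the cytosolic ribosome is at -0.24 with MXD3 against EV and at 0.23 with the fusion against MXD3.

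The cytosolic ribosome gave a measure of scale. The 84 tested genes for its proteins had a median of -0.24 with MXD3 against EV, 0.23 with the fusion against MXD3 and 0.01 with the fusion against EV. In the same comparisons the members were at -0.05, 0.09 and 0.04. With MXD3 against EV, 80 of the 84 were lower in both replicate pairs and 1 higher (31.5% and 30.6% of all genes). Without overlap 49 were lower and 0 higher (14.8% and 16.2% of all genes). In the blocked edgeR fit 65 were lower and 0 higher at an unadjusted p under 0.05 (6.99% and 6.94% of all genes). The cytosolic ribosomal genes are short and have many near-identical copies, and none was called.

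Genes that serve the mitochondrial ribosome without an MRP symbol were described next. In none of the 4 lists was a gene called in a plasmid comparison. The 5 ribosomal proteins under other symbols had a median of -0.09 with MXD3 against EV, and DAP3, of the small subunit, was 242 and 244 against 215 and 228 CPM (-0.13 ± 0.12). GADD45GIP1, of the large subunit, was -0.22 ± 0.20 in that comparison and 0.27 ± 0.20 with the fusion against MXD3. The former was -0.08 without MXD3 replicate 2, and the latter 0.03 without STIM1::MXD3 replicate 1. AURKAIP1 and PTCD3, both of the small subunit, were at -0.10 ± 0.16 and 0.07 ± 0.13 with the fusion against EV.

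The 27 assembly factors had a median of 0.12 with MXD3 against EV, opposite in sign to the proteins they help to place, and 0.10 with the fusion against EV. In the replicate 2 pair the former was 0.00. FASTKD2, which binds the large rRNA, was 29.1 and 31.0 CPM with EV and 44 and 36.6 with MXD3 (0.42 ± 0.15; unadjusted p = 0.0254 and adjusted p = 0.999 in edgeR). MPV17L2, needed for the large subunit, was 19.2 and 21.0 against 25.2 and 26.2 CPM (0.35 ± 0.14). With the fusion against EV, the rRNA methyltransferase MRM1 was at 0.46 ± 0.26, but at 0.07 without STIM1::MXD3 replicate 2, and FASTKD2 was at 0.24 ± 0.15. C1QBP and NSUN4 were at 0.21 ± 0.14 and 0.17 ± 0.12 with the fusion against MXD3.

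The 16 translation factors had a median of 0.03 with the fusion against EV, -0.03 with MXD3 against EV and 0.09 with the fusion against MXD3. TUFM, the elongation factor, was 416 and 380 CPM with EV and 357 and 328 with MXD3 (-0.22 ± 0.13). GUF1 was at 0.21 ± 0.13 in that comparison, MTRF1 at 0.33 ± 0.25 with the fusion against EV, and MTIF2, the initiation factor, at 0.22 ± 0.13 with the fusion against MXD3. The 9 genes for copying and transcribing mitochondrial DNA had a median of 0.12 with MXD3 against EV, which was 0.23 between the replicate 1 libraries and 0.03 between the replicate 2 libraries. The helicase TWNK was 12.4 and 19.0 against 20.2 and 24.0 CPM (0.49 ± 0.30). TFAM and TFB2M, both needed for transcription, were at 0.20 ± 0.14 and 0.20 ± 0.16 with the fusion against EV, and MTERF1 and SSBP1 at -0.23 ± 0.23 and 0.13 ± 0.16 with the fusion against MXD3.

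**Figure D5:**
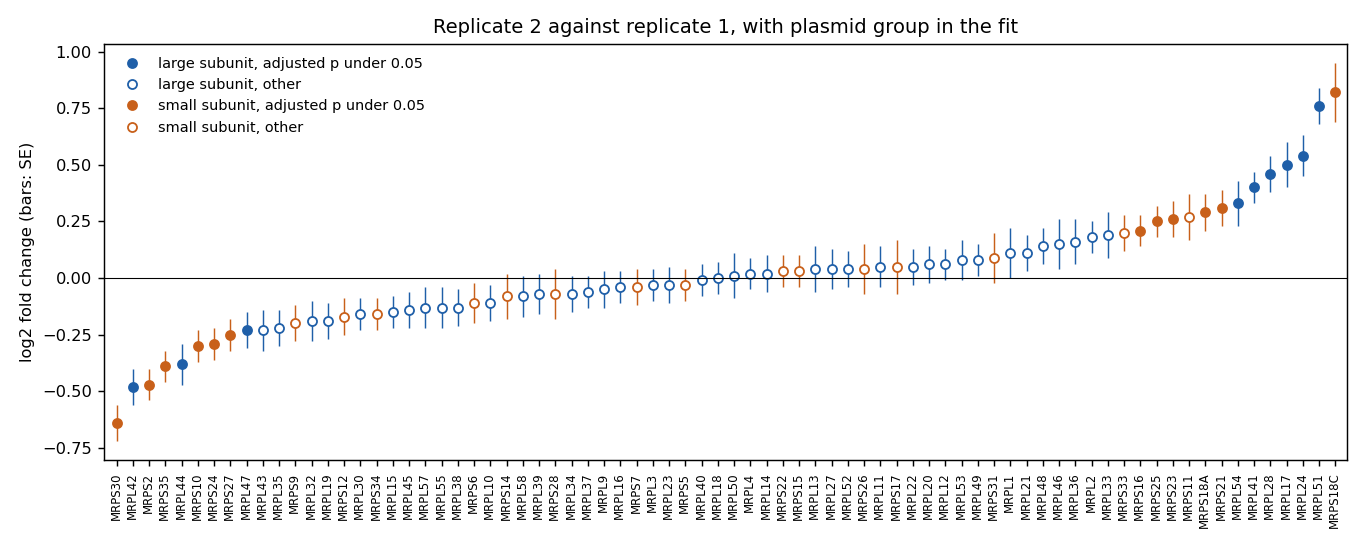
Log2 fold change of each tested member between replicate 2 and replicate 1, ordered by size, with bars for the SE. Filled points have an adjusted p under 0.05 in edgeR: 12 members are higher and 9 lower in replicate 2, from -0.64 for MRPS30 to 0.82 for MRPS18C.

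The clearest differences among the members lay between replicates. With the plasmid group in the fit, 21 of 76 members (27.6%) had an adjusted p under 0.05 between replicate 2 and replicate 1, near the 29.2% of all genes. Of these 12 were higher and 9 lower in replicate 2 (13.1% and 16.1% of all genes). Values were above 0 for 39 of 76 (51.3%, against 50.7%). Without overlap 14 were higher and 18 lower, against 18% and 20.6% of all genes. The share was 9 of 49 in the large subunit (18.4%) and 12 of 27 in the small (44.4%). With MRPS30 and MRPS18A counted in the large subunit it was 11 of 51 (21.6%) and 10 of 25 (40%). This difference was not tested. The labels do not say what the number stands for. Without STIM1::MXD3 replicate 1, 13 members were called.

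MRPS18C had the largest difference. It stood at 8.27, 6.63 and 8.30 CPM in the replicate 1 libraries and at 14.1, 13.9 and 12.8 in the replicate 2 libraries (0.82 ± 0.13; edgeR adjusted p = 0.000338). Its exons overlap those of ABRAXAS1 on the other strand. MRPL51, a protein found only in mitochondria, was 28.7, 26.8 and 30.5 against 48.6, 46.1 and 51.1 CPM (0.76 ± 0.08; edgeR adjusted p = 1.61e-05), which is 1.70 times. MRPL24 was 19.2, 23.2 and 22.2 against 25.5, 32.6 and 36.7 CPM (0.54 ± 0.09). MRPL41, also high per length, was higher by 0.40 ± 0.07. In each of these all replicate 2 libraries lay above all replicate 1 libraries.

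In the other direction MRPS30 was 166, 153 and 172 CPM in replicate 1 and 125, 96.2 and 95.3 in replicate 2 (-0.64 ± 0.08; edgeR adjusted p = 5.01e-05). Structures place this protein in the large subunit. MRPS2, with a bacterial counterpart, was 125, 132 and 135 against 100, 91.2 and 92.2 CPM (-0.47 ± 0.07). MRPL42 was 141, 121 and 152 against 104, 96.9 and 95.1 CPM (-0.48 ± 0.08). MRPL44, which has the fold of a ribonuclease, and MRPS27, a protein with RNA-binding repeats, were lower by -0.38 ± 0.09 and -0.25 ± 0.07. MRPS18A was higher by 0.29 ± 0.08.

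Sorted by symbol, the balance of the subunits also differed between replicates. The ratio of summed large-subunit to small-subunit CPM was 1.38, 1.37 and 1.39 in the replicate 1 libraries and 1.48 in each replicate 2 library, whichever plasmid the cells held. The small-subunit sum was 1970, 1911 and 2083 CPM in replicate 1 and 1871, 1795 and 1862 in replicate 2. This gap was narrower with MRPS30 and MRPS18A counted in the large subunit, where structures place them. The ratio was then 1.67, 1.65 and 1.68 in replicate 1 and 1.74, 1.71 and 1.70 in replicate 2. Neither ratio includes the 5 ribosomal proteins under other symbols. Among these are DAP3 (215 to 249 CPM), AURKAIP1 (106 to 136) and PTCD3 (105 to 124) of the small subunit. GADD45GIP1 of the large subunit was at 39.8 to 62.4 CPM. The ratios are thus not those of whole subunits, and whether a difference remains with these genes was not tested. Across the 76 members the log2 fold change had a Pearson correlation of -0.18 with log2 transcript length and 0.09 with GC content, given as a description over genes that share the same libraries. Of the genes under other symbols, GADD45GIP1 was lower in replicate 2 by -0.33 ± 0.08 and AURKAIP1 higher by 0.24 ± 0.07. MRM2 and METTL15, which methylate the rRNAs, were at 0.59 ± 0.10 and -0.58 ± 0.11, OXA1L and LRPPRC at -0.34 ± 0.07 and -0.28 ± 0.07, and TWNK and SSBP1 at 0.53 ± 0.11 and 0.25 ± 0.07.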

How the data were processed

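RNA from 6 libraries of K562 cells (EV, MXD3 and STIM1::MXD3, 2 each) was analysed, with groups and replicate numbers taken from the labels. The authors deposited 1 table per library of raw, unnormalised counts under NCBI Gene identifiers. The submitters' processing notes name HISAT2 2.2.1, featureCounts 2.0.1 and hg19. The annotation, the use of strand and the counting of pairs or reads were not given in the sources used here, so counts of the 29 members whose exons overlap another gene, and of those with pseudogenes, are uncertain. Among genes with 1 to 39 counts, 59.8% to 67.3% of the counts in a library were even, so some may hold both ends of a read pair.

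Counts were filtered with filterByExpr, scaled by TMM and fitted with the quasi-likelihood test of edgeR 4.0.16 (R 4.3.3) over all 6 libraries, with a coefficient per group and two-sided p-values adjusted by Benjamini-Hochberg over the 15431 genes tested (threshold 0.05). CPM are TMM-scaled, and log2 ratios within replicate pairs used a prior count of 2. Subunits follow the symbols. Lists of genes were described by counts and medians beside all genes, with no test. Transcript length and GC content came from the Ensembl canonical transcript in GENCODE annotation on GRCh37, found for 91.9% of genes tested and all 77 members. The script was tested on simulated data.

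Libraries of the same replicate number deviated together from their group means (correlation 0.27 to 0.45 over all genes and 0.62 to 0.79 over the 10250 genes whose mean CPM reached 5), so the numbers were taken to pair the libraries. The replicate block was an alternative, and its coefficient gave the comparison of replicate 2 with replicate 1. Other alternatives were DESeq2 1.42.0, other scalings and filters, GC and length offsets, halved counts, fits of the compared libraries alone and each library left out. The offsets were fitted to the deviations of these libraries, so plasmid differences shared by genes of like GC content or length are removed with them. With 2 libraries a group, p-values measure the spread between these transfections.

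The members and lists were chosen with earlier results of these data known. Named were, per subunit, the 3 members with the smallest unadjusted p in each comparison, without the block for the plasmid comparisons. Per subunit, the 3 highest and 3 lowest per kilobase with EV were named too. A list of 18 genes of known roles, the 2 genes with the smallest p of each other list and both rRNAs were added. MRPS36 is now named KGD4 and is no member. The 6 neighbours of MRPS18B were named after their values were seen, and MRPL22 and MRPL49 for their E-box.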

Additional observations from a re-analysis of the deposited data

How the results depend on the processing

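No member was called in any of the 3 plasmid comparisons under any alternative run. The number of all genes called was 1 with the fusion against EV, 1 with MXD3 against EV and 0 with the fusion against MXD3. With the replicate block these became 3, 45 and 1. With DESeq2 they were 3, 3 and 1, and with DESeq2 and the replicate block 24, 236 and 11. With GC and length offsets and the replicate block they were 3, 37 and 1. With no filter on low counts they were 2 with the fusion against EV and 1 with the fusion against MXD3. Leaving out a library gave 1 to 2 genes with MXD3 against EV, the 2 without MXD3 replicate 2.

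The medians were less stable, and the causes were not tested. With the fusion against EV, leaving out a library gave -0.020 to 0.056 for the large and 0.059 to 0.126 for the small subunit. With MXD3 against EV the large-subunit median (-0.05) was -0.007 with library totals only, -0.013 with GC and length offsets, -0.014 with these and the replicate block, and -0.060 to -0.042 with a library left out. The small-subunit median (-0.02) was -0.031 with the replicate block in edgeR and -0.034 in DESeq2, 0.023 with library totals only, -0.033 with GC and length offsets, -0.034 with these and the block, and -0.033 to 0.023 with a library left out. With the fusion against MXD3 the large-subunit median (0.09) was 0.020 with GC and length offsets, and 0.015 with these and the replicate block.

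Between replicates, the 21 members called became 13 to 21 with a library left out, and the 4499 genes called became 2580 to 4424. The large-subunit median (0.02) was 0.086 with library totals only, -0.056 with GC and length offsets and -0.034 to 0.055 with a library left out. The small-subunit median (-0.03) was 0.044 with library totals only and -0.018 to 0.045 with a library left out.

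Of 896 values of single genes under alternatives, 880 kept their direction and side of the threshold and 10, all between replicates, lost the call. The other 6 turned when a library was left out. With the fusion against EV, MRPL24 ranged from -0.02 to 0.72, AURKAIP1 from -0.27 to 0.05, PTCD3 from -0.03 to 0.16 and MTRF1 from -0.03 to 0.62, and with the fusion against MXD3 SSBP1 ranged from -0.03 to 0.30. Of the 42 fold changes named by their p-values in the plasmid comparisons, 28 moved by over 1.5 times without 1 of the libraries. Leaving out a library leaves its group with 1, which is assumed to vary like the others. With 2 libraries a group, small shifts cannot be told from the spread.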
